A study of Mus musculus with 2 samples.

Results

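Retinoid storage and breakdown was followed through 8 genes in liver nuclei: *Lrat*, *Rbp4*, *Aldh1a1*, *Cyp26a1*, *Cyp26b1*, *Rarb*, *Rara* and *Rxra*. They were chosen by symbol from the 32285 genes of the count tables, and all 8 were found. Nuclei had been isolated from livers of male C57BL6/J mice on a MASH diet, in which 40% of the energy came from fat and 20% from fructose, with 2% cholesterol. The diet began at 10 to 12 weeks of age and lasted 5 months. Both groups carried floxed *Themis*: Flox was *Themis* flox/flox, and HKO carried in addition Alb-Cre, a Cre recombinase driven by the albumin promoter, for deletion in hepatocytes. The title of the Flox library also holds the word WT. Each group was 1 library, made from pooled liver tissue of several mice whose nuclei were stained and sorted, so that no animal can be told from another. With 1 library per group there were no replicates, no test was possible, and the genotype cannot be told apart from any other difference between the libraries.

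Vitamin A reaches the liver with dietary fat and is kept there mainly as retinyl ester in the lipid droplets of hepatic stellate cells. *Lrat* encodes the enzyme that forms the ester, and *Rbp4* the plasma protein that carries retinol out of the liver. Aldehyde dehydrogenases such as that of *Aldh1a1* oxidise retinal to retinoic acid, the cytochromes P450 of *Cyp26a1* and *Cyp26b1* break retinoic acid down, and receptors encoded by *Rara*, *Rarb* and *Rxra* read it as heterodimers on DNA. *Cyp26a1* and *Rarb* are textbook targets of these receptors, which bind pairs of 6-base hexamers in the same orientation, spaced by a few bases.

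To place that background beside the counts, promoter sequences of all 8 genes were read from RefSeq (GRCm38.p6), in 14 windows from 250 bases before to 50 bases after a transcription start. The hexamer AGGTCA and its variants GGGTCA as well as AGTTCA and likewise GGTTCA were searched on both strands as pairs in the same orientation, spaced by 1, 2 or 5 bases. Of the 14 windows, 2 held such a pair, those of *Cyp26a1* and *Rarb*, and both were spaced by 5 bases. Of 32851 windows of all genes, 0.0974% held a pair spaced by 5 and 0.588% a pair of any of the 3 spacings. The *Cyp26a1* pair lay 32 to 16 bases before the start and reads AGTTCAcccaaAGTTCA on the strand opposite to the gene. The *Rarb* pair lay 53 to 37 bases before the start and reads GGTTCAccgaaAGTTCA on the strand of the gene. That start lies inside the gene, which spans 16430839 to 16819156 on the minus strand. The *Rarb* stretch printed below overlaps 2 annotated exon entries of the gene. *Cyp26b1*, the other retinoic acid hydroxylase, is shown beside them because no window of it held such a pair, which says only that these letters are not there. Capitals mark the 17 bases of a pair, hexamers and spacer together. The *Cyp26a1* stretch is chr19:37697678-37697797 on the plus strand, that of *Rarb* chr14:16575506-16575535 on the minus strand, and that of *Cyp26b1* chr6:84593909-84594028 on the minus strand.
Cyp26a1: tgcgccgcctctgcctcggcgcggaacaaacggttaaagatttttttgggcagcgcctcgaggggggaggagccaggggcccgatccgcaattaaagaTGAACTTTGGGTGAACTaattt
Rarb: gggaagGGTTCACCGAAAGTTCActcgcat
Cyp26b1: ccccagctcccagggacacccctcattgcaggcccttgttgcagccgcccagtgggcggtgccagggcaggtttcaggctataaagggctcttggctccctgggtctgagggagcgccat

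The libraries labelled Flox and HKO held 9363 and 10748 nuclei, with medians of 6216 and 2227.5 UMIs, and shared 27 cell barcodes. After nuclei with under 300 detected genes and 701 and 920 likely doublets had been left out, 8659 and 9801 nuclei remained. Pairs of values below give Flox first, and intervals are 95% intervals for counting error only. Nuclei were told by UMIs of marker genes, which hold none of the 8 genes, and the names stand for a resemblance. They gave 776 and 1044 stellate-like, 740 and 1192 endothelial-like, and 5853 and 4634 hepatocyte-like nuclei, with median depths of 1783 and 1437.5, 1323.5 and 973.5, and 7426 and 5703.5 UMIs. All 13 stellate markers were detected in stellate nuclei and all 16 endothelial markers in endothelial nuclei of both libraries. Only *Mat1a* was both a hepatocyte marker and 1 of the 10 leading hepatocyte genes, in the HKO library, while the other leaders included *Cyp7a1*, *Pck1* and *Ppara*. *Themis* went against the labels, with 162 and 245 CPM in hepatocytes and a ratio of HKO to Flox of 1.52 (1.47 to 1.57), although such counts do not tell whether an exon was deleted, so Flox library and HKO library stand below for the libraries labelled so. CPM are the UMIs of a gene per 1000000 UMIs of the summed nuclei of a type. They come from 3′ tags with no length scale, and levels are compared between cell types and libraries, never between genes.

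The genes divided by cell type. *Lrat* was a stellate gene, *Cyp26b1* an endothelial gene and *Rbp4* a hepatocyte gene, while *Rarb* was highest in stellate and endothelial nuclei and *Aldh1a1* in stellate nuclei and hepatocytes. *Rara* was found at 20.0 to 33.1 CPM in all 3 types.

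**Figure D1:**
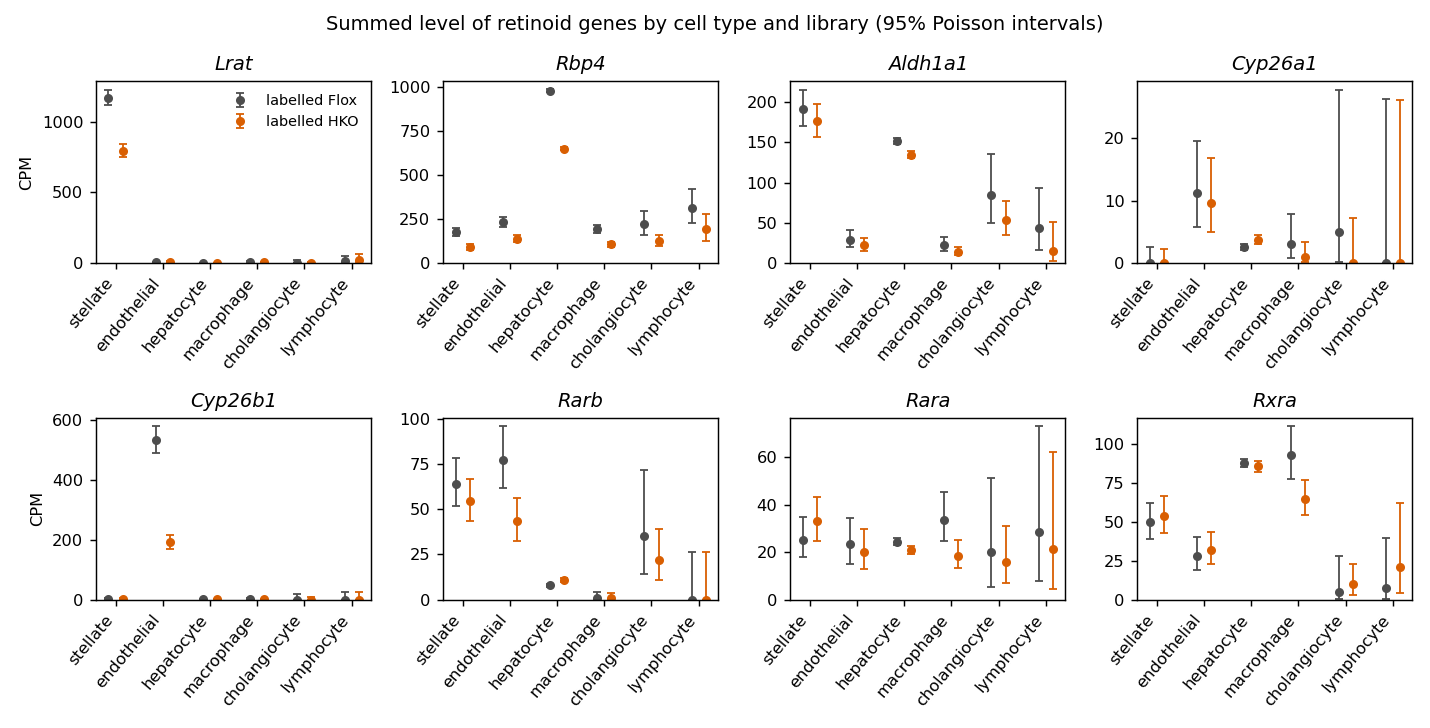
CPM of each gene (y axes, linear and starting at 0, each panel with its own scale) by cell type and library; points are sums over nuclei and bars are 95% Poisson intervals. *Lrat* stands out in stellate nuclei (1169 and 794 CPM) and *Cyp26b1* in endothelial nuclei (535 and 192 CPM). *Rbp4* stands out in hepatocytes (979 and 650 CPM). Lymphocytes show what free RNA of other cells adds only for genes that lymphocytes themselves lack.

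*Lrat* (ENSMUSG00000028003; GRCm38 chromosome 3, 82892579 to 82903973, minus strand) reached 1169 CPM (1115 to 1226) in Flox stellate nuclei, from 1719 UMIs. HKO stellate nuclei held 1270 UMIs, or 794 CPM (751 to 839). Stellate nuclei thus held 90.7% and 89.3% of all *Lrat* UMIs of kept nuclei. The stellate level was 994 (758 to 1329) and 467 (349 to 639) times that of hepatocytes, where *Lrat* was at 1.18 and 1.70 CPM. Those hepatocyte values were 0.101% and 0.214% of the stellate level, below the 0.165% and 0.301% at which the summed stellate markers themselves appeared in hepatocytes. Endothelial nuclei held 3 and 6 *Lrat* UMIs. After each nucleus had been thinned to 1000 UMIs, *Lrat* was detected in 62.2% of 761 stellate nuclei (58.6 to 65.6) and 48.8% of 909 (45.5 to 52.1), with 15 and 135 shallower nuclei left out. The same share was 0.172% and 0.199% in hepatocytes, and without thinning the stellate shares were 77.2% and 58.5%. *Lrat* was among the 10 leading stellate genes of both libraries, although it was not used to find them.

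*Lrat* was also compared along the collagen content of stellate nuclei. Stellate nuclei, thinned to 1000 UMIs, were split by UMIs of *Col1a1*, *Col1a2*, *Col5a1* and *Col5a2*, fibrillar collagen genes that rise when stellate cells become activated. In the Flox library, *Lrat* was at 1235 CPM (1132 to 1346) in 235 nuclei with no such UMI, 1054 CPM in 235 nuclei with 1, and 1214 CPM (1127 to 1306) in 291 nuclei with 2 or more. The same ranges of HKO nuclei, 218, 266 and 425 in number, had 833, 815 and 780 CPM. The ratio of the highest to the lowest collagen range was 0.983 (0.877 to 1.10) and 0.937 (0.811 to 1.08), while *Col1a1* itself went from 61.4 to 848 CPM and from 51.7 to 848 CPM. Of the 7 genes with a UMI there, none had a ratio between the end ranges whose counting interval left out 1 in either library. Most stellate nuclei with collagen UMIs had few of them: 51.0% and 48.5% of the nuclei had 1 or 2, so these are ranges and not states of the cell.

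*Rbp4* (ENSMUSG00000024990; chromosome 19, 38116629 to 38125281, minus strand) gave 44942 and 17969 UMIs in hepatocytes, or 979 CPM (970 to 988) and 650 CPM (640 to 659). In stellate nuclei it was at 176 and 89.4 CPM, and in endothelial nuclei at 231 and 136 CPM. Lymphocytes, the pooled T, NK and B nuclei, which should lack the gene, had 314 CPM (228 to 422) and 191 CPM (126 to 278), so the lower stellate and endothelial levels were read as background. Set against 9 abundant hepatocyte transcripts such as *Alb* and *Apoa1*, the *Rbp4* UMIs of every other type came to 0.204 to 0.732 times what hepatocytes had. Hepatocytes held 96.6% and 94.3% of the *Rbp4* UMIs. After thinning, 60.1% and 45.7% of hepatocyte nuclei had an *Rbp4* UMI, against 17.1% and 8.25% of stellate nuclei and 21.1% and 17.9% of lymphocytes. The lymphocyte shares came from only 71 nuclei (12.3 to 32.4) and 39 nuclei (7.54 to 33.5), with 53 and 124 too shallow to count.

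*Aldh1a1* (ENSMUSG00000053279; chromosome 19, 20492715 to 20643465, plus strand) was present in both stores of the pathway, stellate nuclei and hepatocytes. Stellate nuclei held 282 UMIs in each library, or 192 CPM (170 to 216) and 176 CPM (156 to 198). Hepatocytes had 152 CPM (148 to 155) and 134 CPM (130 to 139), which made the stellate level 1.27 (1.12 to 1.43) and 1.31 (1.16 to 1.48) times as high. Endothelial nuclei had 28.9 and 21.6 CPM, and lymphocytes 42.9 and 14.2 CPM from 6 and 2 UMIs. Per UMI of the 9 hepatocyte transcripts, stellate nuclei held 3.31 (2.93 to 3.73) and 3.76 (3.32 to 4.24) times as many *Aldh1a1* UMIs as hepatocytes, and endothelial nuclei 0.393 and 0.320 times. The stellate signal was therefore above what free hepatocyte RNA carries in these ratios, and the endothelial signal was not. Since the closely related *Aldh1a7* shares sequence with *Aldh1a1*, reads that fit both could not be assigned, and the *Aldh1a1* counts are uncertain to that extent.

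*Cyp26b1* (ENSMUSG00000063415; chromosome 6, 84571414 to 84593908, minus strand) was found almost only in endothelial nuclei. Flox endothelial nuclei held 573 of its UMIs, or 535 CPM (492 to 580). HKO endothelial nuclei held 239, or 192 CPM (168 to 217). Endothelial nuclei held 85.7% and 89.5% of its UMIs. Stellate nuclei, which outnumbered or nearly matched endothelial nuclei, held 3 UMIs in each library, and hepatocytes held 30 and 9. As a share of the endothelial level, hepatocytes came to 0.122% and 0.170%, below the 0.173% and 0.246% of the summed endothelial markers, and lymphocytes had 0 UMIs. After thinning, *Cyp26b1* was detected in 29.3% of 638 endothelial nuclei (25.8 to 33.0) and 12.9% of 544 (10.2 to 16.0), with 102 and 648 nuclei too shallow to count. Without thinning the shares were 33.4% and 12.7%.

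*Cyp26a1* (ENSMUSG00000024987; chromosome 19, 37697798 to 37701536, plus strand) was scarce everywhere. In hepatocytes it had 116 and 101 UMIs, or 2.53 CPM (2.09 to 3.03) and 3.65 CPM (2.97 to 4.44). Endothelial nuclei had 12 UMIs in each library, or 11.2 CPM (5.78 to 19.6) and 9.62 CPM (4.97 to 16.8), which was 4.43 (2.23 to 8.04) and 2.63 (1.32 to 4.81) times the hepatocyte level. The endothelial count per UMI of the 9 hepatocyte transcripts was 9.11 (4.58 to 16.5) and 5.24 (2.62 to 9.56) times that of hepatocytes. No UMI was found in stellate nuclei of either library, where 3 counts would be 2.04 and 1.88 CPM, under the hepatocyte levels. Neither hydroxylase thus had more than 3 UMIs in the stellate nuclei of a library, the nuclei that hold *Lrat*.

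Of the receptors, *Rarb* (ENSMUSG00000017491; chromosome 14, 16430839 to 16819156, minus strand), the retinoic acid receptor beta, was the most uneven. Endothelial nuclei had 77.4 CPM (61.7 to 96.0) and 43.3 CPM (32.5 to 56.5), and stellate nuclei 63.9 CPM (51.7 to 78.3) and 54.4 CPM (43.6 to 67.1). The order of these 2 types turned between the libraries, and neither ratio differed from 1 beyond counting error. Cholangiocytes followed with 7 and 11 UMIs, and hepatocytes were lower, with 7.97 CPM (7.18 to 8.83) and 10.8 CPM (9.58 to 12.1). The hepatocyte level was 12.5% and 19.8% of the stellate level, far above the share at which stellate markers appeared in hepatocytes. Macrophages had 1 and 2 UMIs and lymphocytes 0. Even so, 63.4% and 63.5% of all *Rarb* UMIs lay in hepatocytes, since these gave most of the UMIs of each library.

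*Rara* (ENSMUSG00000037992; chromosome 11, 98927818 to 98974942, plus strand), the retinoic acid receptor alpha, was at 25.2 and 33.1 CPM in stellate nuclei, 23.3 and 20.0 CPM in endothelial nuclei and 24.4 and 20.7 CPM in hepatocytes. The stellate level was 1.03 (0.723 to 1.43) times the hepatocyte level in the Flox library and 1.60 (1.18 to 2.12) times in the HKO library, where it was also above the endothelial level, by 1.65 (1.01 to 2.78) times. Lymphocytes had 28.6 and 21.2 CPM from 4 and 3 UMIs, too few to tell these levels from theirs. Per UMI of the 9 hepatocyte transcripts, they held 2.29 (0.623 to 5.88) and 1.91 (0.393 to 5.61) times as many *Rara* UMIs as hepatocytes. Whether lymphocytes make *Rara* themselves was not tested, so their level is not a known background for it. *Rxra* (ENSMUSG00000015846; chromosome 2, 27676440 to 27762957, plus strand), the partner in the heterodimer, had hepatocyte levels of 87.9 CPM (85.3 to 90.7) and 85.8 CPM (82.4 to 89.3). Macrophages had 93.4 and 65.0 CPM, stellate nuclei 49.7 and 53.8 CPM, and endothelial nuclei 28.0 and 32.1 CPM. Hepatocytes exceeded stellate nuclei and stellate nuclei exceeded endothelial nuclei beyond counting error in both libraries, by 1.77 (1.15 to 2.81) and 1.68 (1.14 to 2.51) times for the latter pair.

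Between the libraries, the question the labels pose is whether loss of *Themis* in hepatocytes moved these genes. A gene was counted as past the fold when its log2 ratio, with a pseudocount of 1 CPM, was at least 1 in size, among genes with at least 20 UMIs over both libraries in the type. In endothelial nuclei 1 of 7 genes that passed this filter was lower, *Cyp26b1*, beside 2.89% of all 9576 genes. No gene was higher there, beside 1.78%. In stellate nuclei 0 of 6 were higher, beside 1.76% of 10238 genes, and 0 were lower, beside 3.85%. In hepatocytes 0 of 8 were higher, beside 2.64% of 14783 genes, and 0 were lower, beside 1.7%. The median log2 ratio of the genes that passed was −0.18 in stellate nuclei, −0.40 in endothelial nuclei and −0.10 in hepatocytes, against −0.06, −0.05 and 0.00 over all genes. The endothelial median is the value of *Aldh1a1*, which like *Rbp4* was read as background in those nuclei.

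**Figure D2:**
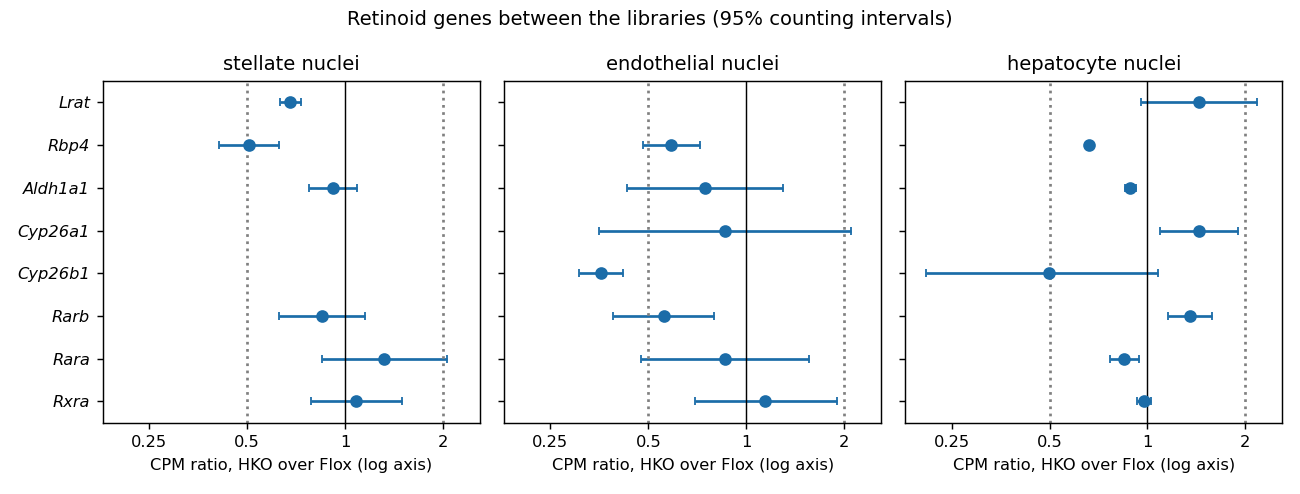
CPM ratio of the HKO library over that labelled Flox (x axes, logarithmic) for each gene with at least 20 UMIs, in stellate, endothelial and hepatocyte nuclei; bars are 95% counting intervals, the solid line marks 1 and dotted lines the fold. *Cyp26b1* in endothelial nuclei, at 0.358, lies past the dotted line, and *Rarb* lies below 1 in endothelial nuclei and above 1 in hepatocytes.

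*Cyp26b1* fell from 535 to 192 CPM in endothelial nuclei, a ratio of 0.358 (0.307 to 0.417) and a log2 ratio of −1.48, and 0.637% of genes were at or below it. The 16 endothelial markers, which were also used to find the nuclei, had a summed ratio of 0.809 (0.792 to 0.826), with 14 of 16 below a log2 ratio of 0 and none past the fold. Their part in the *Cyp26b1* ratio was not tested. *Rarb* in the same nuclei went from 83 to 54 UMIs, a ratio of 0.559 (0.389 to 0.797). *Cyp26a1* had 12 UMIs in each library and a ratio of 0.859 (0.353 to 2.09), which leaves any change within a wide range undetectable at this depth.

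The lower *Cyp26b1* was seen in nuclei with sinusoidal markers. Endothelial nuclei were divided by whether they had more UMIs of sinusoidal genes such as *Stab2* and *Clec4g* or of genes of larger vessels such as *Vwf* and *Sox17*. The more sinusoidal nuclei, 606 and 877, had *Cyp26b1* at 592 CPM (543 to 644) and 175 CPM (149 to 204), from 530 and 163 UMIs, a ratio of 0.295 (0.246 to 0.352). The more vascular nuclei, 96 and 219, had 207 CPM (137 to 301) and 265 CPM (203 to 341), from 27 and 61 UMIs, a ratio of 1.28 (0.802 to 2.10). *Stab2* was at 1865 and 1866 CPM in the more sinusoidal nuclei, and *Vwf* at 898 and 1039 CPM in the more vascular nuclei. Both markers were used to set the ranges, and *Stab2* also to find the endothelial nuclei. Their levels are therefore no independent check on the nuclei compared. *Rarb* had ratios between the libraries of 0.544 (0.355 to 0.822) in the more sinusoidal nuclei and 0.526 (0.228 to 1.21) in the more vascular nuclei. Nuclei in which the sinusoidal and vascular counts differed by at most 1 UMI made up 14.7% and 27.8%, so these are ranges on a scale and not cell types, and the difference between the ratios of the ranges was not tested. *Rxra* had 25 and 37 UMIs in the more sinusoidal nuclei and 2 and 0 in the more vascular.

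**Figure D3:**
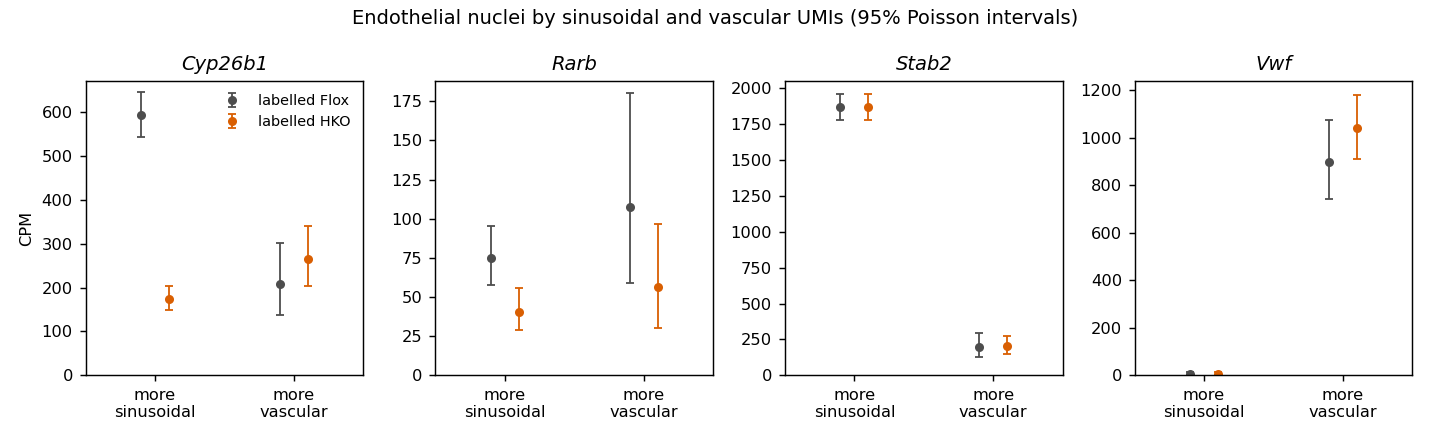
CPM (y axes, linear and starting at 0) of *Cyp26b1*, *Rarb* and the range markers *Stab2* and *Vwf* in more sinusoidal and more vascular endothelial nuclei of each library; bars are 95% Poisson intervals. *Cyp26b1* drops from 592 to 175 CPM in the more sinusoidal nuclei, while its intervals in the more vascular nuclei overlap. *Stab2*, at 1865 and 1866 CPM in the more sinusoidal nuclei, was itself used to set the ranges.

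*Lrat* in stellate nuclei had a ratio of 0.679 (0.631 to 0.731), a log2 ratio of −0.56, which was short of the fold. It was lower in each collagen range, at 0.674 (0.582 to 0.780) without collagen UMIs, 0.773 (0.671 to 0.890) with 1 and 0.642 (0.574 to 0.719) with 2 or more. The summed 13 stellate markers, used to find these nuclei, had a ratio of 0.687 (0.674 to 0.701), with 12 of 13 below a log2 ratio of 0 and 2 past the fold. *Lrat* was thus lower by about as much as the markers of its cell type, and their part in its ratio was not tested. Stellate ratios whose intervals held 1 were those of *Aldh1a1*, at 0.919 (0.776 to 1.09), *Rarb*, at 0.851 (0.628 to 1.15), *Rxra*, at 1.08, and *Rara*, at 1.32 (0.849 to 2.06), whose Flox stellate level was not above that of lymphocytes.

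In hepatocytes, *Rbp4* had a ratio of 0.664 (0.652 to 0.675), a log2 ratio of −0.59, and 7.46% of genes were at or below it. The 9 abundant hepatocyte transcripts had a summed ratio of 0.731 (0.728 to 0.735) in the same nuclei, with 8 of 9 below a log2 ratio of 0. The 13 hepatocyte markers, which were also used to find the nuclei, had a summed ratio of 0.869 (0.865 to 0.873). Of these markers, 6 were above and 7 below a log2 ratio of 0, with 2 past the fold downward. Their part in the *Rbp4* ratio was not tested. *Rbp4* was also lower in the types where it was read as background, with ratios of 0.507 in stellate, 0.589 in endothelial and 0.546 in macrophage nuclei. The 9 transcripts had ratios of 0.669 in stellate and 0.756 in endothelial nuclei, and their part in the *Rbp4* ratios was not tested. *Rarb*, the receptor that was lower in endothelial nuclei, was higher in hepatocytes, at 1.35 (1.16 to 1.58). *Cyp26a1* had a hepatocyte ratio of 1.45 (1.10 to 1.90). *Aldh1a1* was at 0.887 (0.852 to 0.923), *Rara* at 0.850 (0.767 to 0.941) and *Rxra* at 0.975 (0.927 to 1.03). Such narrow intervals reflect many UMIs and say nothing of the spread between animals.

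Several of the genes varied along the hepatocyte zones. Hepatocytes with at least 5 UMIs of zone markers were ranked by the share that came from pericentral genes such as *Glul* and *Cyp2e1*, as against periportal genes such as *Hal* and *Sds*, and cut into quartiles within each library. The most pericentral quartile lay above a share of 65.1% in the Flox library and 54.8% in the HKO library. The same quartile thus covers unlike parts of the scale in each library. Nuclei within 2 percentage points of an end cut made up 17.8% and 11.2%. *Aldh1a1* went from 103 CPM (97.1 to 109) at the periportal end to 234 CPM (224 to 243) at the pericentral end of Flox hepatocytes. HKO hepatocytes had 111 CPM (103 to 119) and 168 CPM (158 to 179) there. The ratios were 2.27 (2.11 to 2.44) and 1.52 (1.38 to 1.67), so both gradients ran the same way, with a lower ratio in the HKO library. Between the libraries, the ratio of HKO to Flox was 1.07 (0.979 to 1.18) at the periportal end and 0.719 (0.667 to 0.775) at the pericentral end. *Rbp4* was higher at the pericentral end by 1.47 (1.42 to 1.51) and 1.67 (1.60 to 1.75) times, and *Rxra* by 1.23 (1.12 to 1.35) and 1.15 (1.03 to 1.30) times.

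*Rarb* had no common gradient. Flox hepatocytes had 8.78, 8.67 and 8.89 CPM in the first 3 quartiles and 5.01 CPM (3.73 to 6.59) in the most pericentral, which made the ratio of the ends 0.571 (0.397 to 0.811). HKO hepatocytes had 8.69, 10.1, 12.4 and 11.3 CPM, with a ratio of 1.30 (0.899 to 1.87). Between the libraries, the most pericentral quartile had a *Rarb* ratio of 2.25 (1.53 to 3.30) and the most periportal 0.990 (0.703 to 1.38). By these quartiles, whose cuts differ between the libraries, the higher hepatocyte level in the HKO library lay toward the pericentral end. *Rara* and *Cyp26a1* had ratios between the ends whose intervals held 1 in both libraries.

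**Figure D4:**
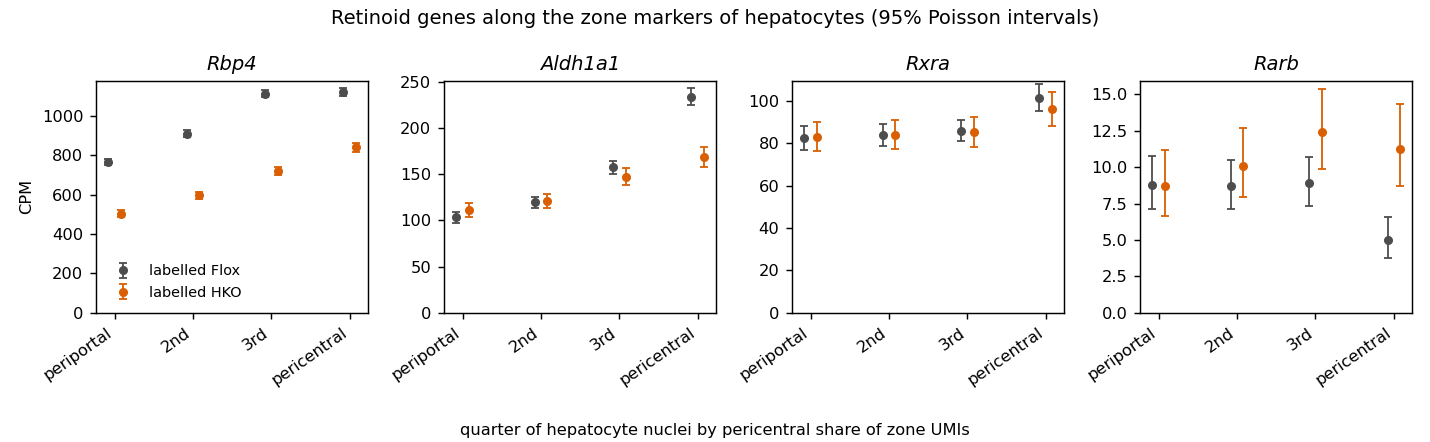
CPM (y axes, linear and starting at 0) of 4 genes in quartiles of hepatocyte nuclei, ranked within each library from periportal to pericentral by zone markers; bars are 95% Poisson intervals. *Aldh1a1* and *Rbp4* are higher at the pericentral end in both libraries, and *Rarb* is at 5.01 CPM there in the Flox library and 11.3 CPM in the HKO library.

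The pathway around these genes was followed with 81 others, in lists for retinol transport, ester formation and hydrolysis, interconversion of retinol and retinal, retinoic acid formation, other hydroxylases, receptors, partners of RXR and genes known to respond to retinoic acid. In hepatocytes 66 of the 81 had enough UMIs, of which 3 were past the fold upward, beside 2.64% of all genes, and 1 downward, beside 1.7%. *Retsat*, retinol saturase, was the lowest, from 63.7 to 22.3 CPM (log2 ratio −1.47). *Lpl*, the lipase that also frees retinyl ester from chylomicrons, was the highest, from 3.72 to 11.3 CPM (1.38). *Aox1*, an aldehyde oxidase that can form retinoic acid, went from 128 to 297 CPM (1.20), and *Rarg*, the receptor gamma, from 1.31 to 4.16 CPM (1.16). *Adh7*, an alcohol dehydrogenase, and *Rdh5*, a retinol dehydrogenase, were next lowest at −0.91 and −0.75. The median of the tested genes was −0.04.

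In stellate nuclei 45 of the 81 were tested, 3 higher, beside 1.76% of all genes, and 0 lower, beside 3.85%, with a median of −0.05. The higher genes were *Cyp1b1*, a cytochrome P450 that can oxidise retinol, from 17 to 49 UMIs (log2 ratio 1.33), *Nr1h3*, the liver X receptor alpha, from 10 to 25 UMIs (1.09), and *Dgat1*, an acyltransferase that can also esterify retinol, from 6 to 15 UMIs (1.03). The lowest were *Dhrs4* at −0.88, *Ppara* at −0.84 and *Dgat2* at −0.79. Flox hepatocytes had these at 121, 586 and 161 CPM against 20.4, 10.9 and 17.0 CPM in stellate nuclei, and *Nr1h3* at 56.0 against 6.80 CPM. The 9 hepatocyte transcripts stood at 9389 against 3589 CPM there, so *Dhrs4*, *Ppara* and *Dgat2* were read as background in stellate nuclei. The stellate ratios of *Dgat1*, *Ppara* and *Dgat2* had counting intervals that held 1, while those of *Cyp1b1* and *Dhrs4* left it out. *Nr1h3* was higher in the HKO library, by a ratio whose counting interval left out 1. The 9 transcripts had a ratio of 0.669 between the libraries in the same nuclei. What free RNA adds to stellate *Nr1h3* was not tested.

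In endothelial nuclei 44 were tested, 2 higher, beside 1.78% of all genes, and 2 lower, beside 2.89%, with a median of −0.17 against −0.05 over all genes. *Lpl* went from 7 to 21 UMIs (log2 ratio 1.24), *Cyp1b1* from 9 to 24 (1.11) and *Dhrs4*, a carbonyl reductase that acts on retinal, from 13 to 26 (0.73). *Aldh8a1* went from 20 to 10 UMIs (−1.12), *Rdh7* from 64 to 34 (−1.10) and *Ncoa1*, a receptor coactivator, from 63 to 38 (−0.93). Flox hepatocytes had *Aldh8a1* at 316 and *Rdh7* at 533 CPM against 18.7 and 59.7 CPM in endothelial nuclei, where the 9 hepatocyte transcripts were at 4565 CPM, so both lower values were read as background. *Dhrs4* was at 121 against 12.1 CPM, but its endothelial ratio was 1.72 (0.852 to 3.64). The 9 transcripts had a ratio of 0.756 in endothelial nuclei and *Dhrs4* one of 0.630 in hepatocytes. What free RNA adds to endothelial *Dhrs4* was not tested. *Dhrs3*, a retinal reductase known to respond to retinoic acid, was at 171 and 111 CPM in endothelial nuclei, a ratio of 0.653 (0.520 to 0.818), and at 52.4 and 67.5 CPM in stellate nuclei, a ratio of 1.29 (0.954 to 1.75).

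**Figure D5:**
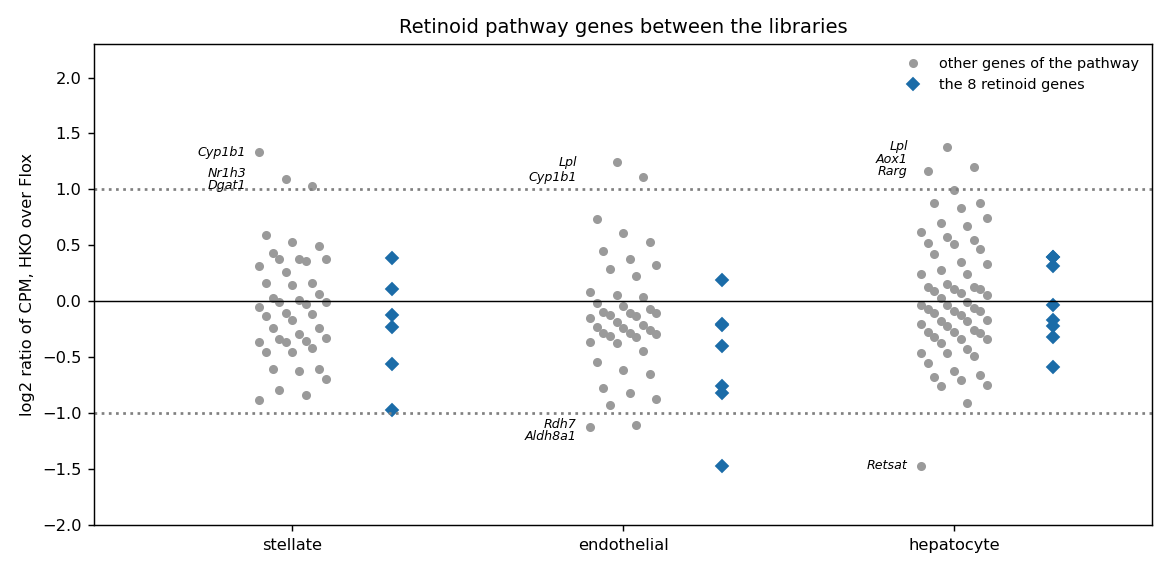
Log2 ratio of CPM, HKO over Flox (y axis), of the other pathway genes (circles) and of the 8 retinoid genes (diamonds) with at least 20 UMIs in each cell type; dotted lines mark the fold of 1 on the log2 scale. *Cyp26b1*, at −1.48 in endothelial nuclei, and *Retsat*, at −1.47 in hepatocytes, are the lowest points.

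Partners of the 8 genes were found as follows. *Ttr*, transthyretin, which holds RBP4 in plasma, was at 770 and 611 CPM in hepatocytes, a ratio of 0.793 (0.779 to 0.808). *Stra6l*, a receptor for RBP4 of the liver, was at 129 and 139 CPM in hepatocytes, and *Stra6* had 0 UMIs in all 3 types. *Aldh1a2* had at most 2 UMIs in any of the 3 types and *Cyp26c1* at most 2, so neither could be compared. *Rarg* was at 61.9 and 48.8 CPM in stellate and 80.2 and 61.7 CPM in endothelial nuclei, *Rxrb* at 48.6 and 41.5 CPM in hepatocytes and *Rxrg* at 6.77 and 8.46 CPM there.

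Genes most like each of the 8 were sought by Pearson's r of log2(CPM + 1) over 14 profiles, 7 cell types in 2 libraries, among 13870 genes with at least 100 UMIs. These values describe profiles that share libraries and depth. *Cyp26b1* was most like *Cdh13* (0.995), *1110018N20Rik* (0.993) and *Ccm2l* (0.991). *Rarb* was most like *Tcf7l1* (0.987), *Khdrbs3* (0.979) and *Col4a1* (0.977). *Rbp4* was most like *Apoa1* (0.975), *Ces3a* (0.963) and *Trf* (0.959), and *Aldh1a1* like *H6pd* (0.955), *Slc35d1* (0.95) and *Kifc2* (0.938). *Trf* was among the markers used to find hepatocytes. *Apoa1* was among the abundant hepatocyte transcripts that *Rbp4* was set against. *Lrat* had *Fendrr* (0.897), *Slmap* (0.894) and *Col6a1* (0.887) nearest to it, *Rara* had *Tcea1* (0.975), *Samd4b* (0.974) and *Dpm3* (0.967), and *Rxra* had *Slc8b1* (0.954), *Slc11a2* (0.943) and *Mir22hg* (0.916). For *Cyp26a1*, with few UMIs, they were *Gm16867* (0.920), *2610203C22Rik* (0.869) and *Susd4* (0.866).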

How the data were processed

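The deposited files hold raw UMI counts per gene and nucleus, which the authors made with Cell Ranger 8.0.1 on mm10 (GRCm38), intronic reads excluded. The lowest barcode total was 500 UMIs. The 8 genes and all lists were chosen with earlier results of these data known. Doublets were removed with Scrublet in scanpy 1.11.5, at 0.8% per 1000 barcodes. A non-hepatocyte type needed at least 4 UMIs of 2 markers, 0.2% of a nucleus's UMIs and 3 times the marker UMIs of every other such type, with hepatocyte markers under 0.6% (cholangiocytes excepted). A hepatocyte needed 0.4% and 4 UMIs, and no other type at 4 UMIs of 2 markers and 0.1%. These limits were set after the data were seen, and 431 and 977 nuclei stayed unassigned. Intervals are exact: Poisson for CPM, conditional binomial for ratios and Clopper-Pearson for shares. Named pathway genes are the 3 highest and 3 lowest log2 ratios per type and preset partners, and for likeness the 3 closest genes. Of the pathway lists, 1 gene is not reported here and was left out of their counts after its values had been seen. Ratio intervals and calls were run on simulated counts with Poisson error only, the error the intervals assume. That run holds no spread between nuclei, animals or libraries and says nothing of it. *Themis* counts do not tell whether an exon was deleted.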

Additional observations from a re-analysis of the deposited data

Results flagged for a closer look

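*Cyp26b1* differed between endothelial ranges in opposite directions in the libraries. Its level in more vascular relative to more sinusoidal nuclei was 0.350 (0.229 to 0.515) for Flox and 1.52 (1.11 to 2.05) for HKO, although with types told by graph clusters the HKO value was 1.34 (0.983 to 1.81), an interval that holds 1. *Rarb* moved in opposite directions between the libraries in 2 cell types, with HKO to Flox ratios of 0.559 (0.389 to 0.797) in endothelial nuclei and 1.35 (1.16 to 1.58) in hepatocytes. With 1 library per group, neither difference was tested.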

How the results depend on the processing

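No paired analysis was possible because each group is 1 library and the labels give no replicate numbers, and for the same reason no library could be left out. Of 160 log2 ratios under alternatives, 150 kept their sign, 147 lay within the counting interval of the reported value and 13 outside it, and the 1 called value did not reverse. The call of *Cyp26b1* in endothelial nuclei held under all of them, from −1.48 to −1.20, with the same libraries throughout. Subtraction of the lymphocyte level gave the −1.48 and could not move the value, since lymphocytes had 0 UMIs of this gene. The lowest of the others was −1.45, with doublets kept. Counts of genes past the fold changed as follows, and the causes were not tested beyond the genes named. With types told by graph clusters, 4 genes were lower in endothelial nuclei: *Cyp26b1* at −1.20, *Aldh1a1* at −1.30, *Rbp4* at −1.09 and *Lrat* at −1.92 from 40 UMIs. With at least 500 genes per nucleus, 1 gene was lower in stellate nuclei, *Rbp4* at −1.04. With the lymphocyte level subtracted, 1 gene was higher in stellate nuclei (*Rara*, at 11.9 CPM in the HKO library) and 1 in endothelial nuclei (*Aldh1a1*, at 7.48 CPM), since their level in the Flox library then came to 0. The type with the highest level was the same in 61 of 64 comparisons, the exceptions being *Aldh1a1* in the Flox library and *Rara* in both, which were highest in hepatocytes with the lymphocyte level subtracted. Alternatives for the endothelial ranges were chosen after seeing the data: the sinusoidal ratio of *Cyp26b1* ran from 0.298 to 0.377, and with graph clusters the vascular over sinusoidal ratio of the HKO library was 1.34 (0.983 to 1.81). *Cyp26a1*, with 12 UMIs per library in endothelial nuclei, and the more vascular nuclei, with 27 and 61 UMIs of *Cyp26b1*, are among the values that depth limits.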
